A study of Mus musculus with 80 samples.

Results

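The 10 genes described here are widely used astrocyte genes: Gfap, Aqp4, Slc1a2, Slc1a3, Slc6a11, Gja1, Gjb6, Aldoc, Aldh1l1 and S100b. They were taken by gene symbol from the deposited expected counts, and all 10 were found among the 15919 genes listed for the sort comparison and among the 16000 listed for the cell preparation comparison. They were followed from whole brain tissue through dissociation, sorting for microglia and translating ribosome affinity purification (TRAP).

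The study isolated microglia from brains of Cx3cr1(Jung)-cre/Ert2+;NuTRAP+ mice, in which tamoxifen-induced Cre, driven from the Cx3cr1 locus, tags the ribosomes of Cx3cr1+ cells with eGFP. Every mouse carried this genotype and received tamoxifen (100 mg/kg, daily, intraperitoneally) at about 3 months of age, so no group lacked the transgene or the drug. Input was RNA set aside from the homogenate, and TRAP was RNA pulled down from the rest of it with an antibody to GFP. Each library came from 1 mouse, without pooling. The sort comparison held 48 libraries, the Input and the TRAP fraction of homogenized tissue (Tissue, n = 4 mice), of an unsorted suspension made with papain and mechanical force (Cell, n = 4), and of cells from 4 sorts. The sorts were CD11b magnetic beads (autoMACS, n = 4), beads followed by the Tyto sorter (autoMACS to Tyto, n = 3), Tyto (n = 5) and FACSAria (n = 4). The last 2 were gated on CD11b+CD45+eGFP+ cells. The paper gives this gate for the Tyto sorter, which autoMACS to Tyto cells also passed. The Tissue and Cell libraries came from mice 946, 947, 948 and 949, and the sorted libraries from other mice. The cell preparation comparison held 32 libraries with 4 mice per group: Tissue, Dounce (a mechanical dissociation at 4 °C), and Cell (-) Inhibitors and Cell (+) Inhibitors, without and with actinomycin D, triptolide and anisomycin during dissociation. Its Tissue libraries came from the same 4 mice as in the sort comparison and are no independent sample of mice.

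Astrocytes clear glutamate and GABA from the synaptic space, buffer potassium and water, and couple to each other through gap junctions. Many of their fine processes and the endfeet that wrap blood vessels lie far from the cell body, and several of their mRNAs are carried into these processes. In brain Cx3cr1 is a gene of microglia and related macrophages, so astrocyte ribosomes are not the target of the tag. By role, Gfap is the intermediate filament of astrocytes and Aqp4 the water channel of their endfeet. Slc1a2 (GLT-1) and Slc1a3 (GLAST) take up glutamate, and Slc6a11 (GAT-3) takes up GABA. Gja1 (connexin 43) and Gjb6 (connexin 30) form their gap junctions. Aldoc is a glycolytic aldolase, Aldh1l1 an enzyme of folate metabolism, and S100b a calcium-binding protein that cells of the oligodendrocyte lineage also make.

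On the mm10 build these genes, all protein-coding, lie at chr11:102887336-102897200 (Gfap), chr18:15389394-15403684 (Aqp4), chr2:102658683-102790784 (Slc1a2), chr15:8634124-8710807 (Slc1a3), chr6:114131241-114249886 (Slc6a11), chr10:56377300-56390419 (Gja1), chr14:57123301-57133611 (Gjb6), chr11:78324198-78326760 (Aldoc), chr6:90550848-90599171 (Aldh1l1) and chr10:76253836-76261319 (S100b). The counts covered their exons, whose joint length ran from 1.48 kb for S100b to 12.1 kb for Slc1a2.

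Libraries of the sort comparison held 7129464 to 20168116 expected counts each, with a median of 15211942. Those of the cell preparation comparison held 2471448 to 14650287, with a median of 10179908 and the smallest totals in Dounce-TRAP. Levels below are CPM, the counts scaled to library size after TMM adjustment, within each comparison. The summed level of the 282 microglial genes listed by the study was 4374 to 5074 CPM in Tissue-Input, 30415 to 37718 in Cell-Input and 184908 to 231625 in the sorted Input libraries. Within autoMACS-Input the library of mouse 72 had the lowest level of the microglial receptor gene Csf1r, at 3659 CPM, in a group that reached 10045. A gene was called higher or lower at an adjusted p under 0.1, from the quasi-likelihood test of edgeR with Benjamini-Hochberg adjustment over all genes tested, together with a fold change above 2.

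All 10 genes were well above the detection floor in Tissue-Input of the sort comparison. Per kilobase of exon, Aldoc was highest at 346 ± 33.6 CPM per kb (SD, n = 4), followed by S100b at 171 ± 15.1, Slc1a2 at 101 ± 4.96, Slc1a3 at 78.1 ± 4.83 and Slc6a11 at 53 ± 3.33. Gfap at 45.2 ± 2.45 and Gja1 at 44.6 ± 1.49 CPM per kb were neighbours whose libraries overlapped, while every other pair of neighbours in this order was apart in all 4 mice. Gjb6 (29.9 ± 0.840), Aldh1l1 (19.9 ± 0.779) and Aqp4 (14.6 ± 1.02 CPM per kb) were lowest.

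After dissociation, 6 of the 10 genes were called higher. In Cell-Input against Tissue-Input of the same 4 mice these were Gja1, Slc1a3, Aqp4, Gjb6, Slc6a11 and Slc1a2. Both connexins, both glutamate transporters, the GABA transporter and the water channel were thus called. Gfap, Aldoc, Aldh1l1 and S100b were not called. All of these but Gfap were still higher in every Cell-Input library than in any Tissue-Input library. Of the 15572 genes tested, 27.5% were called higher and 19.2% lower in this comparison. The median of the 10 genes was 1.68 on the log2 scale, against 0.09 over all genes tested. In the cell preparation comparison S100b was called and Slc1a2 was not. Fewer cells of a type and less RNA per cell cannot be told apart in these bulk libraries.

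**Figure D1:**
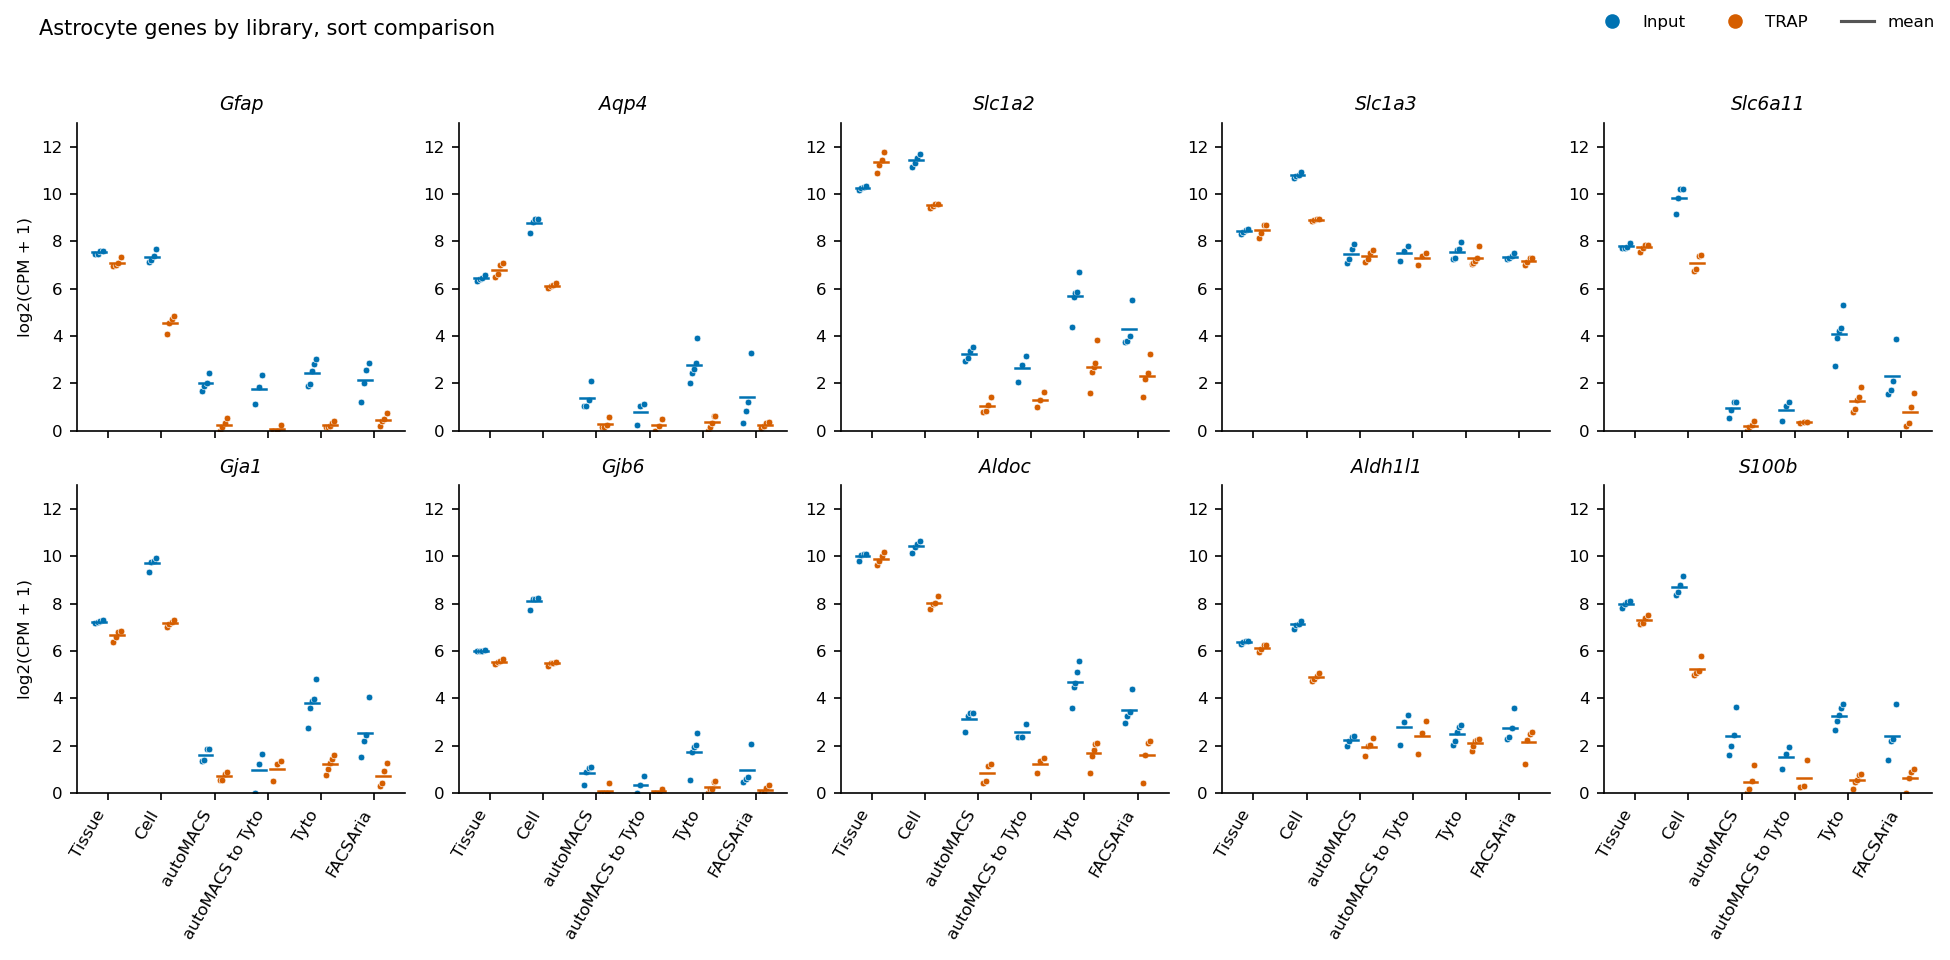
Level of each astrocyte gene in every library of the sort comparison, as log2(CPM + 1), by preparation along the x axis, with Input in blue, TRAP in orange and lines at the group means. From Tissue-Input to Cell-Input 6 genes were called higher. In sorted cells all 10 were below their Cell levels, with Slc1a3 between 127 and 251 CPM in every sorted library.

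Gja1 was at 144, 156, 152 and 149 CPM in the Tissue-Input libraries of mice 946 to 949 and at 639, 886, 963 and 862 CPM in their Cell-Input libraries. The lowest Cell library was far above the highest Tissue library. The log2 fold change was 2.50 ± 0.12 (SE), or 5.67-fold (adjusted p = 1.81e-12, edgeR quasi-likelihood test). Slc1a3 went from 318 to 368 CPM in Tissue-Input to 1646, 1919, 1803 and 1754 CPM in Cell-Input, a log2 fold change of 2.40 ± 0.10 (adjusted p = 4.43e-13). Aqp4 lay between 78.8 and 93.3 CPM in tissue and between 327 and 487 CPM in the suspension, with a log2 fold change of 2.37 ± 0.14. For Gjb6 the ranges were 62 to 65.6 and 211 to 303 CPM (log2 fold change 2.16 ± 0.10). In all of these genes the 4 mice moved the same way, and mouse 946 had the smallest Cell-Input level of each.

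Slc6a11 rose to 569, 908, 1181 and 1175 CPM in Cell-Input from 208 to 239 CPM in tissue. It had the largest standard error of the genes called higher (log2 fold change 2.15 ± 0.20). The other glutamate transporter, Slc1a2, rose less than Slc1a3, from 1148 to 1282 CPM in tissue to 2260 to 3270 CPM in cells, at 1.20 ± 0.14 (adjusted p = 3.14e-07). Gfap was at 175, 192, 194 and 176 CPM in Tissue-Input and at 140, 165, 146 and 205 CPM in Cell-Input. These ranges overlapped, and its log2 fold change of -0.14 ± 0.14 was the lowest of the 10 (adjusted p = 0.357).

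Aldoc, Aldh1l1 and S100b were each higher in all 4 Cell-Input libraries than in any Tissue-Input library, by less than the fold change required for a call. Their log2 fold changes were 0.44 ± 0.13, 0.76 ± 0.09 and 0.77 ± 0.18. In all, the libraries were apart for 9 genes, all higher in Cell-Input, where 39.4% of all genes tested were apart in that direction.

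The proportions of the 10 genes to each other also differed between tissue and suspension. For each library, each gene was set against the geometric mean of all 10 in that library, a log2 ratio on which the scaling of the library has no effect. Gfap went from a ratio of -0.27 ± 0.05 (SD, n = 4) in Tissue-Input to -1.87 ± 0.15 in Cell-Input, and Aldoc from 2.21 ± 0.11 to 1.20 ± 0.04. The ratios of S100b and Aldh1l1 were lower by 0.71 and 0.69. Those of Gja1, Slc1a3, Aqp4, Gjb6 and Slc6a11 were higher, by 1.04, 0.95, 0.92, 0.70 and 0.65. Libraries of both preparations were apart for these 9 genes and overlapped only for Slc1a2, at 2.46 ± 0.10 and 2.20 ± 0.14. Set against Slc1a3 alone, Aqp4, Gjb6 and Slc6a11 turned to differences of -0.04, -0.26 and -0.30.

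**Figure D2:**
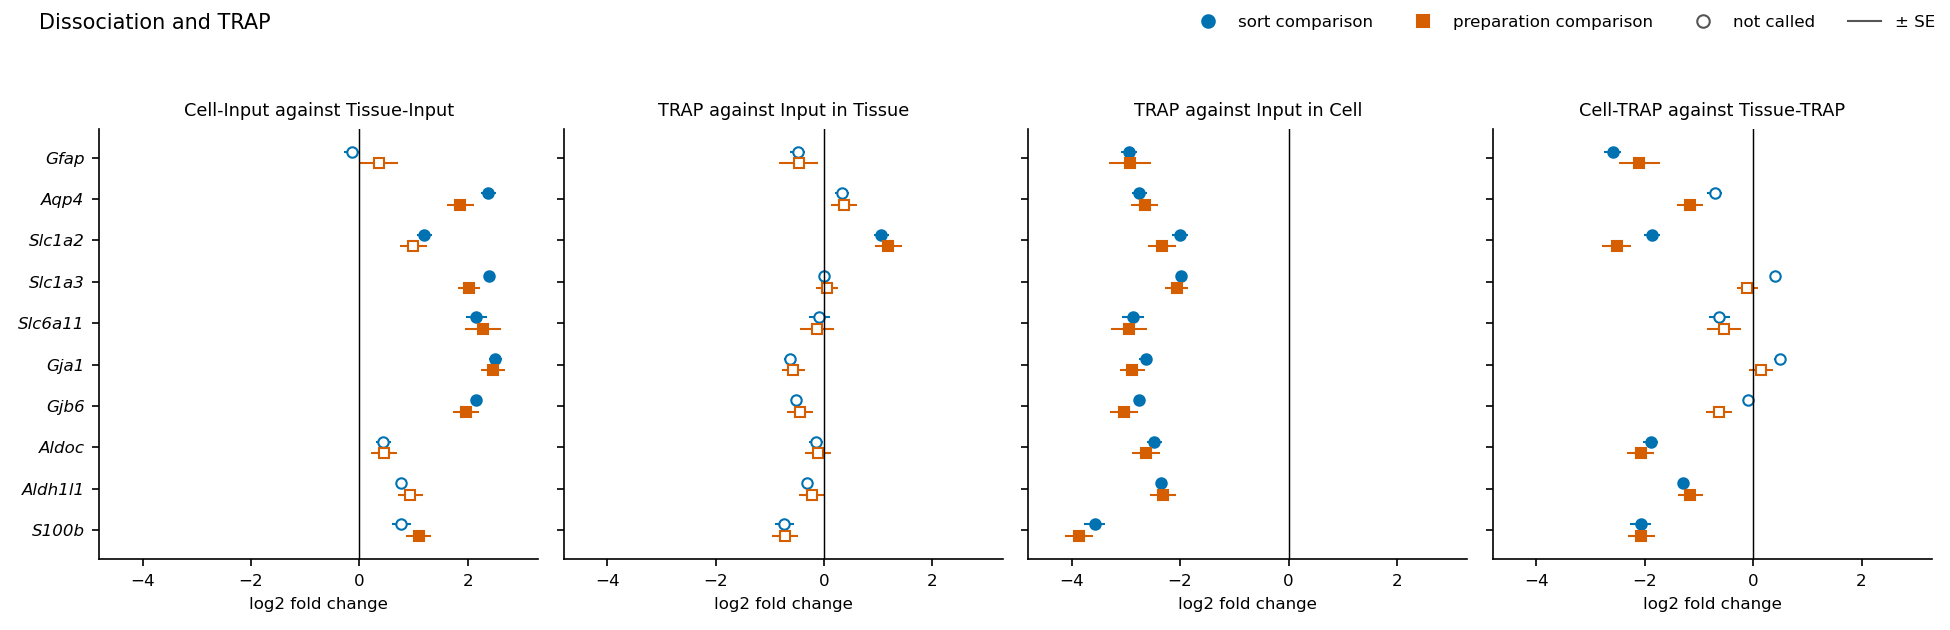
Log2 fold change ± SE of each astrocyte gene in 4 comparisons of unsorted preparations (n = 4 mice per group), in the sort comparison (blue circles) and in the cell preparation comparison (orange squares, Cell (-) Inhibitors), with open symbols for genes not called. The first panel runs from -0.14 for Gfap to 2.50 for Gja1 in the sort comparison, and in TRAP against Input in Cell all 10 genes are below 0 in both.

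The suspensions of the cell preparation comparison came from other mice and were set against Tissue-Input there. Of the 10 genes, 6 were called higher and none lower in Cell-Input (-) Inhibitors, where 28.3% of the 15894 genes tested were called higher. The log2 fold change was 2.46 ± 0.22 for Gja1, 2.28 ± 0.33 for Slc6a11, 2.02 ± 0.21 for Slc1a3, 1.96 ± 0.24 for Gjb6 and 1.86 ± 0.25 for Aqp4. The sixth called gene was S100b, at 1.09 ± 0.24, and without the library of mouse 1361, which had the highest S100b level (947 CPM), it was not called (0.89). Slc1a2 was at 0.99 ± 0.25 and Aldh1l1 at 0.94 ± 0.23, both short of the fold change required. Both were called without the library of mouse 1362 (1.06 and 1.04). Slc1a2 was also called without that of mouse 1361 (1.12), or without the Tissue-Input library of mouse 946 (1.01) or 949 (1.01). Aldoc (0.45) and Gfap (0.36) were not called.

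Gfap stood apart in the suspensions of the cell preparation comparison. Its level was 192, 513, 201 and 172 CPM in the Cell-Input (-) Inhibitors libraries of mice 1361, 1362, 156 and 157, and 193 to 221 CPM in Tissue-Input. The library of mouse 1362 was high in Gfap and low in Slc6a11 (777 CPM, the others 1274 to 2085) and Gjb6 (176 CPM, the others 267 to 359). In Cell-Input (+) Inhibitors mouse 1362 again had the highest Gfap level, 329 CPM, against 167 to 211 CPM in the other 3. Gfap was called in neither suspension against tissue.

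Pulling down eGFP-tagged ribosomes from homogenized tissue is a way to enrich microglial RNA without sorting, and TRAP against Input in Tissue measured how much astrocyte RNA came along. Slc1a2 was called higher in Tissue-TRAP and none of the other 9 genes was called in either direction. Of all genes tested, 9.02% were called higher and 3.26% lower. Slc1a2 was at 1207, 1148, 1260 and 1282 CPM in Tissue-Input and at 2418, 1914, 2787 and 3445 CPM in Tissue-TRAP of mice 946 to 949. Every TRAP library was above every Input library, with a log2 fold change of 1.06 ± 0.14 (adjusted p = 6.77e-06, edgeR quasi-likelihood test), close to the fold change of 2 that a call required. Without the Tissue-TRAP library of mouse 949, it was 0.90 and not called.

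In the separately counted Tissue libraries of the cell preparation comparison, from the same mice, Slc1a2 was at 1513 to 1638 CPM in Input and at 3004, 2708, 3673 and 4983 CPM in TRAP. Its log2 fold change was 1.18 ± 0.25 and the only call among the 10 genes, where 8.21% of all genes were called higher, and without mouse 949 it was 0.98 and not called. The other 9 genes lay between -0.71 and 0.38 there. Slc1a2 also has the longest exon sequence of the 10. In the sort comparison 459 tested genes had 10 kb or more of exon. Their median log2 fold change of TRAP against Input in Tissue was -0.07, and Slc1a2 lay above 95.4% of them. The median of the study's 97 neuronal genes in the same comparison was -0.15. The part of exon length or of neuronal RNA in the level of Slc1a2 was not tested.

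The other 9 genes were not called in Tissue-TRAP against Tissue-Input. Slc1a3, the other glutamate transporter, was at 337, 318, 368 and 353 CPM in Input and at 329, 283, 412 and 407 CPM in TRAP, a log2 fold change of 0.00 ± 0.10. Aqp4 (0.33 ± 0.13), Slc6a11 (-0.09 ± 0.19) and Aldoc (-0.15 ± 0.13) also overlapped between the fractions. Gja1 (-0.63 ± 0.11), Gjb6 (-0.51 ± 0.09), Gfap (-0.49 ± 0.14), Aldh1l1 (-0.31 ± 0.09) and S100b (-0.73 ± 0.18) were lower in all 4 TRAP libraries than in any Input library, by less than the fold change required for a call. Libraries were apart in that direction for 5 of the 10 genes and for 16% of all genes. Relative to the geometric mean of the 10, the ratio of Slc1a2 was higher in Tissue-TRAP by 1.19 and that of Aqp4 by 0.48, while those of S100b, Gja1, Gjb6 and Gfap were lower by 0.33 to 0.57.

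**Figure D3:**
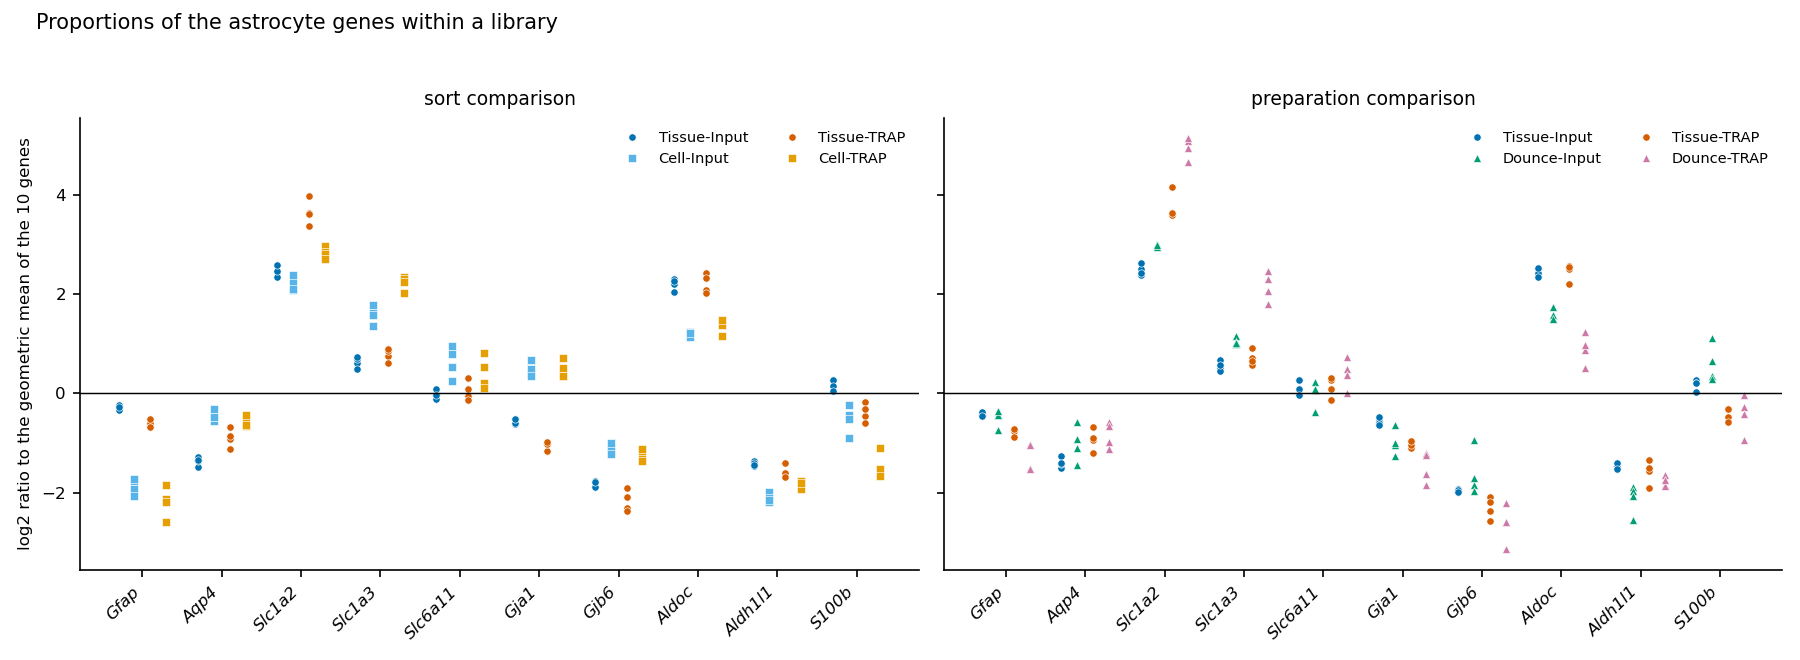
Log2 ratio of each astrocyte gene to the geometric mean of the 10 genes in the same library, with 1 symbol per library and 4 libraries per group, for the sort comparison (left) and the cell preparation comparison (right). Gfap and Aldoc sit lower in Cell than in Tissue libraries, Gja1 and Slc1a3 sit higher, and Slc1a2 reaches its highest ratio, 4.96 on average, in Dounce-TRAP.

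In the cell suspension, TRAP libraries held much less astrocyte RNA than their Input. All 10 genes fell in Cell-TRAP against Cell-Input, where 33.2% of all genes were called lower, with a median log2 fold change of -2.69 against -0.17 over all genes. S100b fell most, from 355, 439, 324 and 577 CPM to 32.5, 34.5, 30.4 and 53.9 CPM, at -3.57 ± 0.20 or 11.9-fold. Gfap went from 140 to 205 CPM down to 22.5, 28.0, 15.9 and 25.3 CPM, at -2.94 ± 0.15. The glutamate transporters fell least, at -1.98 ± 0.10 for Slc1a3 and -2.003 ± 0.14 for Slc1a2, and still stood at 457 to 496 and 678 to 772 CPM in Cell-TRAP. The summed level of the 10 genes was 7387 to 10024 CPM in Cell-Input and 1863 to 2092 CPM in Cell-TRAP. The microglial list reached 196930 to 203330 CPM in Cell-TRAP.

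The change from Tissue to Cell differed between the fractions for every one of the 10 genes. The interaction of preparation and fraction was called for all 10 with the change in TRAP below that in Input, where 32.7% of all genes were called in that direction. It ranged from -1.99 ± 0.14 for Slc1a3 to -3.08 ± 0.19 for Aqp4. In the cell preparation comparison all 10 genes also fell in TRAP against Input, by 2.06 to 3.86 on the log2 scale without inhibitors (36.7% of all genes called lower) and by 2.30 to 4.01 with inhibitors (35.8%).

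TRAP from the suspension and TRAP from tissue differed in which astrocyte genes remained. In Cell-TRAP against Tissue-TRAP of the same mice, Gfap (-2.59 ± 0.15), S100b (-2.07 ± 0.19), Aldoc (-1.89 ± 0.14), Slc1a2 (-1.86 ± 0.14) and Aldh1l1 (-1.28 ± 0.09) were lower and none was called higher, against 30.6% and 23.8% of all genes. Aqp4 and Slc6a11 were lower in all 4 mice at -0.71 ± 0.13 and -0.63 ± 0.19, short of a call. Libraries were apart in the lower direction for 7 of the 10 genes and for 38.6% of all genes. Gja1 was at 96.0, 83.2, 113 and 111 CPM in Tissue-TRAP and at 139, 127, 158 and 147 CPM in Cell-TRAP, and Slc1a3 at 329, 283, 412 and 407 against 496, 491, 457 and 470 CPM. Both were higher in every Cell-TRAP library than in any Tissue-TRAP library, at 0.50 ± 0.11 and 0.41 ± 0.10, and neither was called. Over all genes tested, 36.5% were apart in that direction. Gjb6 overlapped between the preparations (-0.09 ± 0.10). Aqp4 was called in the same comparison of the cell preparation libraries (-1.17 ± 0.24), together with the 5 genes above, where 31.9% of all genes were called lower. With inhibitors these 6 genes were again the ones called lower against Tissue-TRAP, where 32.7% of all genes were. None of the 10 genes was higher in every Cell-TRAP library than in any Tissue-TRAP library of the cell preparation comparison. Over all genes, 30.8% were apart in that direction without inhibitors and 30.7% with them. The highest log2 fold change of the 10 genes there was 0.15 without inhibitors and -0.03 with them.

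All 10 genes were lower again in the sorted cells. Each was called lower in each of the 4 sorts against Cell-Input, and in each against Cell-TRAP. Of all genes, 32.8% were called lower in Tyto-Input, 32.6% in FACSAria-Input, 32.2% in autoMACS-Input and 32.4% in autoMACS to Tyto-Input, and 23.2%, 21.9%, 23% and 21.7% in the TRAP of the same sorts. The median of the 10 against Cell-Input was -5.79 on the log2 scale in Tyto-Input, -7.12 in FACSAria-Input, -7.96 in autoMACS-Input and -8.66 in autoMACS to Tyto-Input, against 0.02 to 0.05 over all genes. Each such comparison is between mice. Slc1a3 fell least, at -3.37 to -3.60 in the 4 Input comparisons and -1.53 to -1.76 in the 4 TRAP comparisons.

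The Slc1a3 libraries of all sorts and both fractions overlapped. Slc1a3 was at 153, 200, 135 and 234 CPM in autoMACS-Input, at 204, 154, 251, 152 and 197 CPM in Tyto-Input, at 163, 150, 156 and 180 CPM in FACSAria-Input and at 143, 194 and 220 CPM in autoMACS to Tyto-Input. The TRAP libraries of the same sorts held 127 to 222 CPM. Its log2 fold change of TRAP against Input was -0.02 ± 0.18 in autoMACS, -0.18 ± 0.20 in autoMACS to Tyto, -0.16 ± 0.16 in Tyto and -0.10 ± 0.18 in FACSAria, none of them called. It was not called different among the sorts by the F test of edgeR, in Input (largest fitted difference 0.23, adjusted p = 0.695) or in TRAP (0.23, adjusted p = 0.65). Slc1a3 made up 8.83% to 10.1% of the summed level of the 10 genes in Tissue-Input, 43.9% to 93.0% in the sorted Input libraries and 84.8% to 97.2% in the sorted TRAP libraries. Without Slc1a3, the other 9 genes summed to 14.5 to 260 CPM in sorted Input and to 4.01 to 25.7 CPM in sorted TRAP, against 3147 to 3399 CPM in Tissue-Input.

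Aldh1l1 was the other gene not called in TRAP against Input in any of the sorts, at -0.23 ± 0.39, -0.35 ± 0.44, -0.39 ± 0.34 and -0.69 ± 0.38 in autoMACS, autoMACS to Tyto, Tyto and FACSAria. Its level was low, at 2.94 to 4.22 CPM in autoMACS-Input and 1.91 to 3.95 CPM in autoMACS-TRAP, and 3.79 to 11.1 CPM in FACSAria-Input, where mouse 69 was highest. The other 8 genes were called lower in TRAP in autoMACS, Tyto and FACSAria, where 11.4%, 10.3% and 6.01% of the 12635 genes tested were called lower, and 3 genes were in autoMACS to Tyto, where 4.36% were. The 10 genes had a median TRAP to Input log2 fold change of -2.79, -3.45, -2.82 and -1.67 in autoMACS, Tyto, FACSAria and autoMACS to Tyto, against medians over all genes between -0.01 and 0.04.

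**Figure D4:**
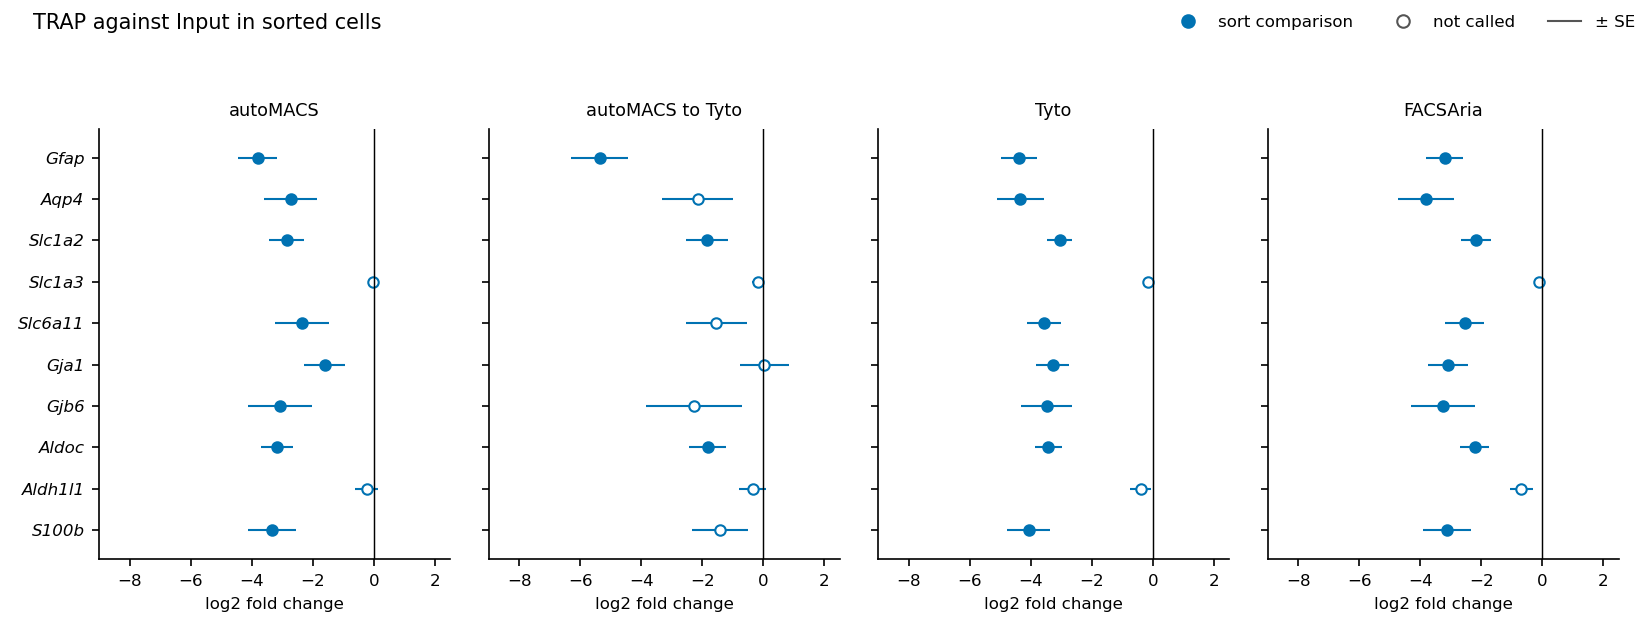
Log2 fold change ± SE of TRAP against Input for each astrocyte gene in the 4 sorts (n = 5 mice for Tyto, 4 for FACSAria, 4 for autoMACS and 3 for autoMACS to Tyto), with open symbols for genes not called. Slc1a3 lies at -0.02 to -0.18 and Aldh1l1 at -0.23 to -0.69, while the other genes lie lower in autoMACS, Tyto and FACSAria, from -1.61 to -4.39.

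Among these 8 genes, Slc1a2 was at 102, 49.4, 57.4, 20.04 and 55.7 CPM in the Tyto-Input libraries of mice 69, 822, 823, 945 and 991 and at 13.3, 6.29, 4.51, 2.01 and 5.54 CPM in their Tyto-TRAP libraries. Every TRAP library was below every Input library, and the mouse with the highest Input level also had the highest TRAP level. The log2 fold change was -3.06 ± 0.42. In autoMACS the same gene went from 6.62 to 10.5 CPM down to 0.721 to 1.67 CPM, at -2.86 ± 0.58. Gja1 in autoMACS (-1.61 ± 0.67, adjusted p = 0.0587) was closest to the threshold and was lost in 4 of the fits that left out 1 library, namely those without mouse 67 or 72 in either fraction (adjusted p of edgeR 0.11 to 0.124). Slc6a11 in autoMACS was not called without the TRAP library of mouse 66 (-2.01), nor Gjb6 in FACSAria without the Input library of mouse 991 (-2.04).

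Several TRAP levels rested on a few reads. A level of 3 counts corresponds to 0.131 to 0.435 CPM across the libraries of the sort comparison. Gjb6 summed to 6 counts over the 4 autoMACS-TRAP libraries, 3 of which had none, and to 6 counts over the 4 FACSAria-TRAP libraries. In autoMACS to Tyto-TRAP, Gfap and Gjb6 each summed to 2 counts over 3 libraries, against 78 and 8 counts in the Input of the same cells. Fitted fold changes of genes this low depend on the prior count. The 3 calls in autoMACS to Tyto were Gfap, Aldoc (-1.81 ± 0.61, adjusted p = 0.0301) and Slc1a2 (-1.84 ± 0.70, adjusted p = 0.0548). Without the autoMACS to Tyto-TRAP library of mouse 67, or the Input library of mouse 66, 1 of the 3 remained.

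The 4 sorts differed in how much astrocyte RNA their Input libraries held. Of the 10 genes, 7 were called different among the sorted Input groups by the F test, where 5.34% of the 15076 genes tested were. The largest fitted difference was 4.43 for Slc6a11 (adjusted p = 0.000616), followed by 3.71 for Gja1, 3.33 for Slc1a2, 3.15 for Gjb6, 3.05 for Aqp4, 2.41 for Aldoc and 2.15 for S100b. Gfap (0.76), Aldh1l1 (0.81) and Slc1a3 were not called. The sorts share mice, 66, 67 and 73 between autoMACS and autoMACS to Tyto and 69, 945 and 991 between Tyto and FACSAria, and this test has no term for them. Slc6a11 was at 38.7, 14.1, 18.9, 5.63 and 17.3 CPM in Tyto-Input, at 2.26, 3.33, 13.8 and 1.89 CPM in FACSAria-Input, at 0.454 to 1.31 CPM in autoMACS-Input and at 0.342 to 1.30 CPM in autoMACS to Tyto-Input. Both groups that passed the beads, autoMACS and autoMACS to Tyto, lay below every Tyto-Input library. In each of the mice 69, 945 and 991 the Tyto-Input level was above the FACSAria-Input level, at 38.7 against 2.26, 5.63 against 3.33 and 17.3 against 13.8 CPM. The sum of the 9 genes other than Slc1a3 was 57.2 to 260 CPM in Tyto-Input, 33.4 to 129 CPM in FACSAria-Input, 28.1 to 44.1 CPM in autoMACS-Input and 14.5 to 33.4 CPM in autoMACS to Tyto-Input.

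Single mice set the upper end in Tyto-Input and FACSAria-Input. Mouse 69 had the highest level of 9 of the 10 genes in Tyto-Input, Slc1a3 being the exception, and mouse 991 that of 7 of the 10 in FACSAria-Input. Without the Tyto-Input library of mouse 69, or the autoMACS to Tyto-Input library of mouse 67, the number of genes called different among sorted Inputs went from 7 to 4. S100b was lost in 11 of the fits that left out 1 library, including both of these. In the sorted TRAP libraries 3 of the 10 genes were called different (Slc6a11, 3.10; Slc1a2, 2.50; Aldoc, 1.45), where 4.17% of the 14953 genes tested were. Aldoc was lost in 7 of the fits that left out 1 library (adjusted p of edgeR 0.108 to 0.192), and Gja1, Gfap or Gjb6 was gained in others, which put the count between 2 and 4. The ependymal gene Foxj1 was also at 0 to 23.8 CPM in FACSAria-Input, a spread whose part in these levels was not tested.

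The inhibitors were added to halt transcription and translation during dissociation, and Cell (+) against Cell (-) Inhibitors compared suspensions of the same 4 mice. None of the 10 genes was called in Input or in TRAP (edgeR), where 0.296% and 0.793% of the 15894 genes were. An unadjusted p of edgeR under 0.05 was reached by 335 genes in Input and 1723 in TRAP. The Input number is below the share of 0.05 of the 15894 genes that chance alone would give. DESeq2, which called 51 and 197 genes, called none of the 10. The differences ranged from -0.26 for Gfap and S100b to 0.16 for Slc1a3 in Input, and from -0.84 ± 0.39 for Gfap (adjusted p = 0.405) to -0.08 for Slc1a3 in TRAP. Against Tissue-Input, the inhibitor suspension had 5 of the 10 genes higher (28.1% of all genes), namely Gja1 (2.43), Slc1a3 (2.17), Slc6a11 (2.08), Aqp4 (2.01) and Gjb6 (1.86). These are also the 5 with the largest log2 fold changes without inhibitors, and both comparisons share their Tissue-Input libraries.

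**Figure D5:**
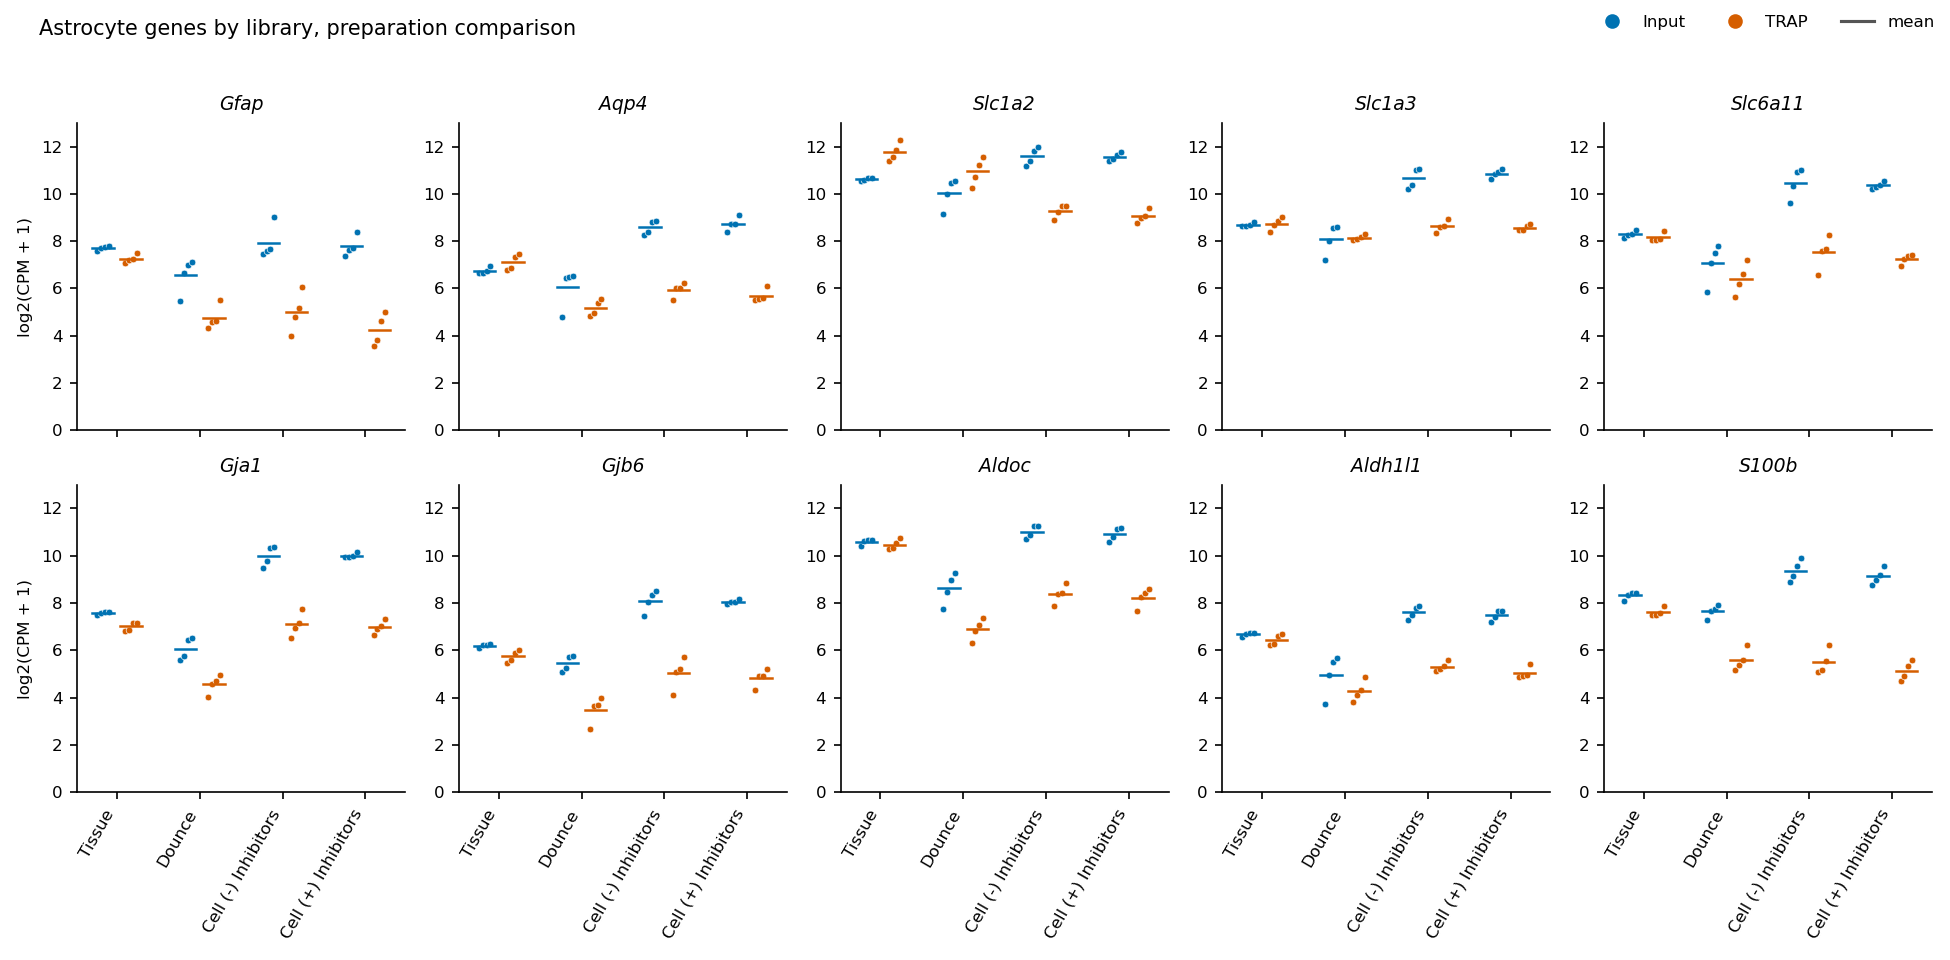
Level of each astrocyte gene in every library of the cell preparation comparison, as log2(CPM + 1), by preparation along the x axis, with Input in blue, TRAP in orange and lines at the group means (n = 4 mice per group). Cell suspensions with and without inhibitors overlap for every gene. Over all genes tested, 0.78% were apart higher and 1.45% lower with inhibitors in Input, and 6.25% and 5.5% in TRAP. Dounce-Input lies below Tissue-Input, and Slc1a2 in Dounce-TRAP (1212 to 3042 CPM) lies above both Cell-TRAP groups (430 to 723 CPM).

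Dounce suspensions were made without enzyme and passed through a Percoll gradient that removes myelin and undissociated tissue. They came from mice 179 to 182, which gave no Tissue or Cell library. An earlier deposited set of 24 libraries held the Tissue and Cell groups of this comparison and no Dounce library. In comparisons of Dounce with Tissue or Cell, preparation therefore cannot be told apart from mouse or from any batch of the libraries. In Dounce-Input against Tissue-Input 5 of the 10 genes fell and none rose, where 25.8% of all genes were called lower. Aldoc fell most, from 1346 to 1633 CPM in tissue to 622, 496, 217 and 358 CPM in the Dounce-Input libraries of mice 179 to 182, a log2 fold change of -1.86 ± 0.25 (adjusted p = 6.49e-08) or 3.64-fold. Aldh1l1 (-1.55 ± 0.24), Gja1 (-1.46 ± 0.22), Slc6a11 (-1.07 ± 0.32) and Gfap (-1.04 ± 0.37) also fell. The remaining genes lay between -0.50 for Slc1a2 and -0.71 for Gjb6. All 10 genes were lower in every Dounce-Input library than in any Tissue-Input library, where 37.5% of all genes were apart in that direction. The study's library metrics list a lower RNA integrity for Dounce-Input than for Tissue-Input or Cell-Input, whose part in these differences was not tested.

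The Dounce-Input library of mouse 181 was the lowest of its group for 9 of the 10 genes, Gjb6 being the exception. Aqp4 was at 26.6 CPM in it and at 84.7 to 91.5 CPM in the other 3, and Slc1a2 at 559 against 1012 to 1494 CPM. Without this library Slc6a11 (-0.80) and Gfap (-0.79) were not called, which left 3 of the 5. Against Cell-Input (-) Inhibitors all 10 genes were lower in Dounce-Input, from -1.40 for Gfap to -3.91 for Gja1, where 35.7% of all genes were called lower. Without the Cell-Input (-) Inhibitors library of mouse 1362, Gfap was at -0.88 and not called there.

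In Dounce-TRAP the glutamate transporters differed less from Tissue-TRAP than the other astrocyte genes. Against Tissue-TRAP 8 of the 10 genes fell, where 27.7% of all genes were called lower, and the genes not called were Slc1a2 (-0.78 ± 0.25) and Slc1a3 (-0.60 ± 0.20). Without the Dounce-TRAP library of mouse 179 Slc1a2 was called lower too (-1.02), and the Slc1a3 libraries, though not called, were all below those of Tissue-TRAP. Aldoc fell most, from 1263 to 1716 CPM in Tissue-TRAP to 164, 134, 113 and 78.1 CPM in Dounce-TRAP, at -3.55 ± 0.27 or 11.7-fold. Gfap (-2.45 ± 0.41), Gja1 (-2.44 ± 0.24) and Gjb6 (-2.26 ± 0.29) followed. Slc1a2 was at 3042, 2414, 1212 and 1696 CPM in Dounce-TRAP and at 3004, 2708, 3673 and 4983 CPM in Tissue-TRAP. These ranges overlapped. Slc1a3 was at 313, 286, 264 and 273 CPM in Dounce-TRAP, the smallest spread relative to its mean of the 10 genes there.

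Slc1a2 was also the only one of the 10 genes called higher in Dounce-TRAP than in Cell-TRAP (-) Inhibitors, where 22.6% of all genes were called higher and 8.45% lower. Cell-TRAP (-) Inhibitors held 597, 475, 723 and 715 CPM, all below the lowest Dounce-TRAP library, and the log2 fold change was 1.74 ± 0.25 (adjusted p = 8.61e-07) or 3.33-fold. In the opposite direction Gja1 (-2.59 ± 0.24), Gjb6 (-1.63 ± 0.29), Aldoc (-1.48 ± 0.25), Slc6a11 (-1.12 ± 0.33) and Aldh1l1 (-1.01 ± 0.27) were lower in Dounce-TRAP. The other genes lay between -0.76 for Aqp4 and 0.07 for S100b. Slc6a11 (-0.83) was not called without the Cell-TRAP (-) Inhibitors library of mouse 156, and Aldh1l1 lost its call in 4 of the fits that left out 1 library (-0.897 to -0.999). By the paper, read coverage leaned more toward the end of genes in Dounce-TRAP and Tissue-TRAP than in Cell-TRAP. The part of this in the difference of Slc1a2 was not tested.

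Within the Dounce preparation, TRAP against Input was called lower for S100b (-2.04 ± 0.26), Gjb6 (-1.995 ± 0.29), Gfap (-1.88 ± 0.41), Aldoc (-1.79 ± 0.25) and Gja1 (-1.56 ± 0.24), where 26.7% of all genes were called lower. Slc1a2 was at 0.91 ± 0.25 and Slc1a3 at -0.04, and the remaining genes were between -0.70 and -0.99. Without the Dounce-TRAP library of mouse 179, 8 of the 10 genes were called lower. Aqp4 was also called lower without the Dounce-Input library of mouse 181 (-1.26) or the Dounce-TRAP library of mouse 180 (-1.13) or 181 (-1.23). Aldh1l1 was also called lower without the Input (-1.10) or TRAP (-1.03) library of mouse 181. Slc1a2 was called higher without the Dounce-Input library of mouse 179 (1.08) or of mouse 180 (1.03), where 20.8% of all genes were called higher with every library. Relative to the geometric mean of the 10, Slc1a2 stood at 5.09, 5.14, 4.66 and 4.95 in Dounce-TRAP, at 2.99 ± 0.03 (SD, n = 4) in Dounce-Input and at 3.60, 3.60, 3.64 and 4.16 in Tissue-TRAP. Of these 3 groups Dounce-TRAP had the highest ratio, and the groups did not overlap. Set against Slc1a3 alone, Slc1a2 was at a difference of -0.24 between Dounce-TRAP and Tissue-TRAP. The ratio of Slc1a3 was also higher in Dounce-TRAP than in Dounce-Input, by 1.11.

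Other cell types moved with these values. The study's 97 neuronal genes summed to 6157 to 10608 CPM in Dounce-TRAP, 23003 to 25760 CPM in Tissue-TRAP and 470 to 984 CPM in Cell-TRAP (-) Inhibitors, and their median log2 fold change of TRAP against Input in Dounce was -1.61. Among the 460 tested genes with 10 kb or more of exon the median in that comparison was -0.77, with 88.0% of them below Slc1a2. The median fell with exon length in Dounce, from 0.15 below 2 kb through -0.12, -0.23 and -0.49 in the classes from 2, 4 and 6 kb. In Cell-Input against Tissue-Input the medians of the study's neuronal, oligodendrocyte, endothelial and microglial lists were -2.99, 1.43, 3.21 and 3.84. The part of cell composition in the levels of the 10 genes was not tested.

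The other astrocyte genes listed by role gave a wider view of the same steps. In Cell-Input against Tissue-Input, 6 of 8 endfoot genes rose, 7 of 8 genes of amino acid handling, 4 of 8 transcription factors, 6 of 8 secreted proteins and 10 of 12 genes described in reactive astrocytes, and none of these fell, where 27.5% of all genes were called higher and 19.2% lower. Their median log2 fold changes were 1.41, 1.63, 1.17, 1.39 and 2.42. The study's endothelial and microglial lists had higher medians in this comparison, as given above. The part of those cells in the values of these lists was not tested. Hepacam, an adhesion protein of endfeet, was at 1.91, the glutamine transporter gene Slc38a3 at 2.51, and Osmr, the oncostatin M receptor, at 3.76. At the low end were the transcription factor Nfib (-0.15), carboxypeptidase E (Cpe, -0.03) and Aspg (-0.38), none of them called.

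In TRAP against Input of Tissue, the only genes called on these lists were the secreted proteins Cst3 and Sparc, both higher. Over all genes, 9.02% were called higher and 3.26% lower in this comparison. Cst3, the protease inhibitor cystatin C, and Sparc, a protein of the extracellular matrix, are both also made by microglia, and they were at 2.50 ± 0.10 and 1.54 ± 0.12. The endfoot list had a median of -0.05 with Mlc1 lowest (-0.61), and the transcription factors had a median of -0.43. In TRAP against Input of Cell, 6 of 8 endfoot genes, 6 of 8 genes of amino acid handling, 7 of 8 transcription factors, 5 of 8 secreted proteins and 8 of 12 reactive genes fell. Cst3 (1.75), Sparc (1.46) and the chemokine gene Cxcl10 (1.23) rose. Of the study's astrocytic list without the 10 genes, 123 of 129 fell and 1 rose in that comparison, where 33.2% of all genes were called lower and 14.9% higher.

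In Dounce-Input against Tissue-Input, 1 of 8 endfoot genes, 2 of 8 genes of amino acid handling, 3 of 8 transcription factors, 2 of 8 secreted proteins and 3 of 12 reactive genes fell, while Nfia (2.20) and 3 reactive genes rose. Over all genes 25.8% were called lower and 24.8% higher, so these counts do not set the lists apart from the background. Lcn2, the secreted iron-carrier binding protein lipocalin 2, rose most at 5.04 ± 0.88, and the small heat shock protein gene Hspb1 fell most at -3.61. Of the study's astrocytic list 10 of 129 genes rose and 26 fell, no larger a share than among all genes.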

How the data were processed

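Stranded poly(A) libraries were sequenced by the authors, who aligned reads to mm10 in Strand NGS, removed duplicates and deposited expected counts per gene beside log2 values that they had normalised with DESeq2 size factors and set to a baseline. Genes above 5 in every sample of at least 1 group had been kept. The 3 deposited tables held no columns of samples outside the labels. An earlier table of 24 libraries was used only as an alternative.

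Expected counts were rounded, scaled by TMM and tested by the quasi-likelihood test of edgeR 4.0.16 (R 4.3.3) with Benjamini-Hochberg adjustment over all genes tested, without a mouse term, after removal of genes not above 5 counts in every library of at least 1 group. The code was tested on simulated data. Levels are TMM-scaled CPM, with floors of 3 counts covering counting error only. limma 3.58.1 on the deposited log2 values and DESeq2 1.42.0 on the counts were alternatives. Other tools were Python 3.11.15, pandas 2.3.3, numpy 2.4.6 and matplotlib 3.10.9. Exon lengths and coordinates came from an mm10 annotation.

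Input and TRAP libraries of 1 mouse are paired by the mouse number in the labels. Deviations from the group means of such pairs had a median r of 0.33 in the unsorted libraries (8 pairs, 0.13 to 0.41), 0.33 in the sorted libraries (16 pairs, -0.15 to 0.46) and 0.18 in the cell preparation libraries (16 pairs, 0.03 to 0.41).

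All 10 genes are named, by value or by range and count. Of the other astrocyte lists genes at the high and low ends are named, except for an item that is not reported here, with Kcnj10, Glul, Sox9, Apoe, Vim and Atp1b2 always, and of the study's astrocytic list the 3 highest and 3 lowest in the changes from Tissue-Input to Cell-Input and to Tissue-TRAP, and the 5 genes whose group means followed the 10 genes most closely. Genes, lists and tests were chosen with earlier results of these data known.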

Additional observations from a re-analysis of the deposited data

Results flagged for a closer look

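Among the 170 groups of 4 or 5 libraries examined, 14 held 1 library far from the others by Dixon's criterion, and chance alone marks about 1 in 20 groups.

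In FACSAria-Input the library of mouse 991 stood apart for 4 genes. Aqp4 was at 8.75 CPM in it and at 0.253 to 1.34 in the other 3, Slc1a2 at 45.3 against 12.6 to 15.0, Slc6a11 at 13.8 against 1.89 to 3.33, and Gjb6 at 3.18 against 0.375 to 0.602 CPM. Gjb6 of mouse 946 stood apart in 3 groups, at 65.6 CPM in Tissue-Input (62 to 62.2 in the others), 211 CPM in Cell-Input (294 to 303) and 39.8 CPM in Cell-TRAP (44.3 to 44.7). Slc1a3 was at 222 CPM in the Tyto-TRAP library of mouse 823 and at 132 to 155 CPM in the other 4.

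In the cell preparation comparison Gfap was at 513 CPM in the Cell-Input (-) Inhibitors library of mouse 1362 (172 to 201 in the others). In Cell-TRAP (+) Inhibitors mouse 1361 had Aqp4 at 68.4 CPM (44.2 to 47.5) and Aldh1l1 at 41.4 CPM (28.2 to 29.7). Aqp4 was at 26.6 CPM in the Dounce-Input library of mouse 181 (84.7 to 91.5), Slc6a11 at 348 CPM in the Tissue-TRAP library of mouse 949 (262 to 271), and Gja1 at 1156 CPM in the Cell-Input (+) Inhibitors library of mouse 157 (981 to 1004).

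The change from Tissue to Cell differed between the fractions, by the interaction term of edgeR, for all 10 genes. The change in TRAP minus that in Input was -2.45 for Gfap, -3.08 for Aqp4, -3.06 for Slc1a2, -1.99 for Slc1a3, -2.33 for Aldoc, -2.78 for Slc6a11, -2.01 for Gja1, -2.25 for Gjb6, -2.05 for Aldh1l1 and -2.85 for S100b on the log2 scale.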

How the results depend on the processing

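No fitted log2 fold change of the 10 genes changed direction in a way that reversed a call under any alternative fit. Where the count of called astrocyte genes moved by over 1.5 times, as follows, the cause was not tested. TRAP against Input in Tissue of the sort comparison had 1 call, and 0 with scaling by library size alone (chosen after seeing the data; Slc1a2 0.98), 0 with limma on the deposited log2 values (0.96), and 0 to 1 when 1 library was left out. The same comparison in the preparation libraries also ranged from 0 to 1. Among sorted Inputs the 7 calls became 4 with only the compared groups in the fit, and 4 to 7 without 1 library. Among sorted TRAP groups the 3 calls became 5 with DESeq2. TRAP against Input in autoMACS to Tyto ranged from 1 to 3 calls when a library was left out. Dounce-Input against Tissue-Input went from 5 to 3 calls with DESeq2 size factors, library size alone, DESeq2 or only the compared groups, and to 3 to 5 without 1 library. TRAP against Input in Dounce went from 5 to 8 calls with library size alone, and to 5 to 8 without 1 library. With Slc1a3 alone as the reference, the genes whose ratios were apart went from 8 to 5 for Cell-Input (-) Inhibitors against Tissue-Input, from 5 to 8 for Dounce-TRAP against Tissue-TRAP, and from 0 to 1 between the Input suspensions with and without inhibitors. Of 99 such ratios 32 changed sign with that reference, 14 of them among those whose libraries had been apart, such as Slc1a2 in Dounce-TRAP against Tissue-TRAP (1.21 to -0.24). With the mouse as a replicate block, 15 of the 33 comparisons could be fitted, and all 15 counts and 150 gene values kept their call. The tests among sorts could not be fitted with it, because the sorts fall into sets of different mice. Nor could comparisons between groups of different mice, such as sorted against Cell, or Dounce or the inhibitor suspensions against Tissue. S100b in Cell-Input (-) Inhibitors against Tissue-Input was not called with only the compared groups (0.93), with limma (0.97) or in the earlier table (0.91).

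Over all genes, scaling and test choices shifted the median log2 fold change by -0.45 to 0.44. Calls over all genes went from 805 to 1323 with DESeq2 and 484 with only the compared groups among sorted Inputs, from 624 to 1148 and 394 among sorted TRAP groups, from 1306 to 2091 without a filter on low counts for TRAP against Input in Tyto, from 772 to 469 without 1 library in FACSAria, and from 126 to 197 with DESeq2 and 191 in the earlier table between inhibitor TRAP groups. The percentage of calls that were higher went from 43.7 to 30.4 (limma) for Cell-TRAP against Tissue-TRAP, and from 31.0 to 19.3 (library size alone) and 18.5 (limma) for TRAP against Input in Cell. It was 37.4 to 38.6 for sorted Inputs against Cell-Input and 23.8 to 28.0 under other scalings, 49 and 60.1 (library size alone) for Dounce-Input against Tissue-Input, and 72.8 and 59.5 (limma) for Dounce-TRAP against Cell-TRAP (-) Inhibitors. For Dounce-Input against Cell-Input (-) Inhibitors it was 39.2 and 50.9 (only the compared groups), for TRAP against Input in Dounce 43.8 and 30.4, and for the suspensions without and with inhibitors 22.4 and 37.9, and 21.3 and 33.8.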

Other observations

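Other genes often used for astrocytes fell into different patterns across the sorts. Kcnj10, the potassium channel of astrocyte processes and endfeet, had a mean of 278 CPM in Tissue-Input, 741 in Cell-Input and 109 in Cell-TRAP, and group means of 19 to 33.8 CPM in sorted cells, where TRAP against Input lay between -0.39 and 0.12 on the log2 scale and was not called. Atp1b2, which carries the ACSA2 antigen used to sort astrocytes, went from 588 CPM in Tissue-Input to 1633 in Cell-Input, and had group means of 1.71 to 29.0 CPM in sorted Input and 0.540 to 2.09 CPM in sorted TRAP. Sox9, a transcription factor of astrocytes, had means of 30.6, 87.0 and 12.0 CPM in Tissue-Input, Cell-Input and Cell-TRAP and of 0.880 to 2.39 CPM in sorted Input. Vim, an intermediate filament that many cell types share, was at 46, 243 and 99.0 CPM in the same unsorted groups.

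Glul and Apoe, which microglia also express, stayed high throughout. Glul, glutamine synthetase, had means of 1645 CPM in Tissue-Input, 3553 in Cell-Input and 3586 in Cell-TRAP and of 2654 to 3591 CPM in the sorted groups, and its log2 fold change of TRAP against Input in Cell was -0.08, not called. Apoe, the apolipoprotein of brain lipid particles, had means of 1913, 3712 and 4099 CPM in those unsorted groups and of 3152 to 4710 CPM in the sorted groups. In Dounce both rose in TRAP against Input, Apoe by 2.04 and Glul by 1.01.

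Over the 12 group means of the sort comparison, the genes whose profile was most like the mean profile of the 10 were Acsbg1, Ttyh1, Mmd2, Mlc1 and Bcan, with Pearson r of 0.999, 0.999, 0.998, 0.998 and 0.997 among 11724 genes compared. The 10 genes themselves, each of which is part of that mean profile, ranged from 0.883 for Slc1a3 and 0.977 for Aldh1l1 to 0.997 for Aqp4. These are descriptions over groups that share mice, and all 5 genes stand on the study's astrocytic list.

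At the ends of the study's astrocytic list in Cell-Input against Tissue-Input were Hgf (4.12 ± 0.34, means 4.63 and 0.258 CPM), the endothelin receptor gene Ednrb (3.00 ± 0.12, 253 and 32.1 CPM) and the adhesion molecule gene Vcam1 (2.94 ± 0.20, 122 and 16.2 CPM), which rose, and Dclk1 (-1.75 ± 0.20, 123 and 420 CPM), which fell. Trim9 (-0.75) and Pax6 (-0.44) were not called. In TRAP against Input of Tissue the GABA-A receptor subunit gene Gabrb1 rose (1.20 ± 0.14, 41.8 and 17.6 CPM), while Ptprz1 (-1.77 ± 0.10, 18.9 and 62.1 CPM), A2m (-1.24) and Tnc (-1.16) fell. Hgf (0.89) and Sorcs2 (0.85) were not called.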
